A study of Mus musculus with 6 samples.

Results

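The 35 genes described here encode the machinery that copies DNA in S phase, together with the cyclins and factors that start it. They were taken as the rows of the count table whose symbol equals a listed name, and all 35 of 35 were found among 23207 symbols in the table. All 35 passed the expression filter, which kept 19741 genes. The RNA came from endothelial cells of the spleen in 6 mice with a knockout of Apoe, the apolipoprotein E gene, without which cholesterol accumulates in blood. In the MLKL ASO group, mice 1603, 1604 and 1607 received an ASO, an antisense oligonucleotide that lowers the RNA it pairs with, against Mlkl, the gene of the pore-forming pseudokinase of necroptosis. In the control ASO group, mice 1601, 1602 and 1608 received a control ASO. Both groups carried the Apoe knockout and were fed a high cholesterol diet for the 8 weeks of treatment, so no untreated, chow-fed or Apoe-sufficient mice are among them. The sources used here state neither the age of the mice nor how the cells were isolated.

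Eukaryotic cells prepare to copy their DNA in G1, when the origin recognition complex, Cdc6 and Cdt1 load the MCM2-7 helicase onto origins. Cyclin E with Cdk2 and the kinase Cdc7 then fire the origins: Cdc45 and the GINS complex join MCM2-7 to make the active helicase, primase and polymerase alpha lay down primers, and the sliding clamp PCNA holds polymerases delta and epsilon on the template. Most of these genes are silent in resting cells and are switched on together by E2F transcription factors once the retinoblastoma protein releases them. Adult endothelium is largely quiescent, whereas erythroid and other blood progenitors of the mouse spleen divide often.

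Promoter sequences are shown first, because E2F factors are known to act on many of these genes through a short promoter motif. The E2F-type motif was searched as TTTCCCGC, TTTCGCGC, TTTGCCGC or TTTGGCGC on either strand, in the 300 bases from 250 before to 50 after each start site in the RefSeq table for GRCm38.p6. Of the 35 genes 29 had an entry, and 13 of these 29 (44.8%) held the motif in at least 1 listed promoter, against 704 of 27025 genes (2.60%) in the whole table. The 13 genes were Orc1, Cdc6, Cdt1, Mcm3, Mcm5, Mcm6, Mcm7, Gins3, Rfc3, Pola1, Pold1, Lig1 and Uhrf1. A match describes the letters only and is not evidence of a bound site, and a gene without one may hold a variant of the motif.

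For each role group with a match, the matching gene with the smallest p between the groups is shown on its own coding strand, with up to 36 bases on each side of its first motif. Capitals mark the E2F-type motif on either strand. In Mcm6 a pair of motifs on opposite strands overlap and read as 1 run.
Cdc6, chr11:98907977-98908056, plus strand: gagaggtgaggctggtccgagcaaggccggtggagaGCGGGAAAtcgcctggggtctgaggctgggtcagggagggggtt
Mcm6, chr1:128359772-128359851, minus strand: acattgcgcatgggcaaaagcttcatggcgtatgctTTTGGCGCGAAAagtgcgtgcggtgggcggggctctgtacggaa
Gins3, chr8:95633482-95633561, plus strand: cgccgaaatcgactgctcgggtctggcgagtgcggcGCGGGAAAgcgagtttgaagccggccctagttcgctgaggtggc
Rfc3, chr5:151651175-151651254, minus strand: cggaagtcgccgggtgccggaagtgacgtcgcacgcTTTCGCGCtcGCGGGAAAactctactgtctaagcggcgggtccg
Pola1, chrX:93632250-93632329, minus strand: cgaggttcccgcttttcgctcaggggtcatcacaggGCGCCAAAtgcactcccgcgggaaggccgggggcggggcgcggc
Lig1, chr7:13278816-13278875, plus strand: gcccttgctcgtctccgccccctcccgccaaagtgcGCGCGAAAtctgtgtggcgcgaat
Uhrf1, chr17:56304092-56304171, plus strand: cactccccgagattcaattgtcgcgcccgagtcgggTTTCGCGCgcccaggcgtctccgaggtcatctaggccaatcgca

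The motif began 10 bases upstream of the annotated start site in Rfc3, 41 upstream in Gins3, 110 upstream in Mcm6 and 138 upstream in both Cdc6 and Pola1. It was most frequent in the licensing genes (3 of 4) and the MCM2-7 genes (4 of 5 with an entry), and was in 0 of the 4 nucleotide supply genes. Mitotic genes differed in their promoter letters. The CHR element, searched as TTTGAA or TTCGAA on either strand and known from genes expressed in G2 and M phase, stood in 6 of 29 replication genes (20.7%), in 15 of 20 mitotic genes (75%) and in 5854 of all 27025 genes (21.7%). The E2F-type motif stood in 1 of the same 20 mitotic genes. It was about as frequent in the genes of the E2F, RB and G1 machinery (7 of 16, 43.8%) as in the replication genes, and also stood in 3 of 9 checkpoint and repair genes (33.3%) and 7 of 26 other replisome genes (26.9%). CCAAT, the box bound by NF-Y, was in 18 of 29 replication genes, 16 of 20 mitotic genes and 41.1% of all genes. The median log2 fold change between the groups (MLKL ASO minus control ASO) was 0.39 for the 13 replication genes with an E2F-type motif and 0.54 for the 16 without one, a difference that was not tested.

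**Figure D1:**
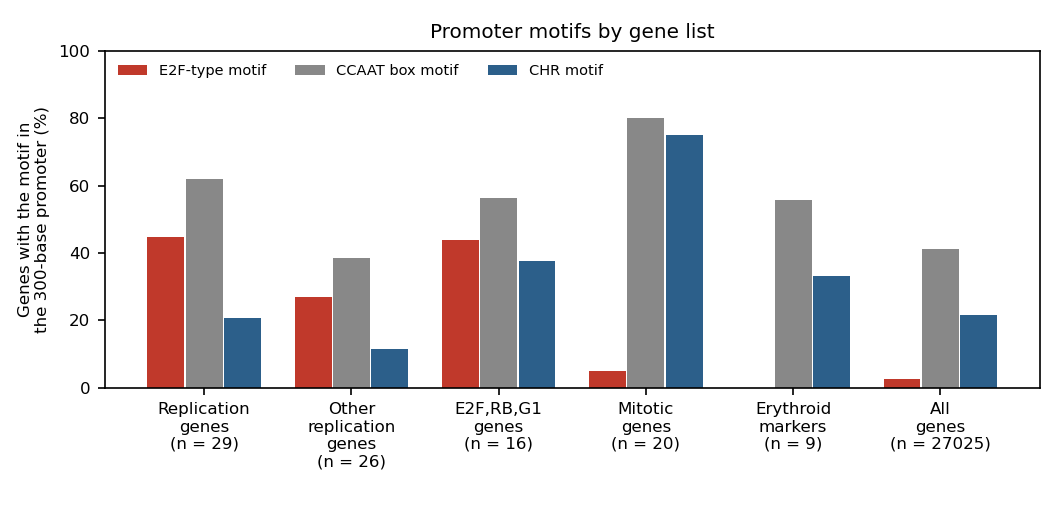
Share of genes (%, vertical axis) with an E2F-type motif, a CCAAT box or a CHR motif in the 300-base promoter, for 5 gene lists and all genes with an entry. The E2F-type motif is in 44.8% of replication genes, 43.8% of E2F, RB and G1 genes and 2.60% of all genes, and the CHR motif in 75% of mitotic genes and 21.7% of all genes.

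The target gene followed the labels: Mlkl measured 7.52, 5.80 and 3.73 CPM (a gene's counts relative to its library's total, put on a common scale by TMM) in MLKL ASO mice 1603, 1604 and 1607, against 30.1, 31.5 and 38.7 CPM in control ASO mice 1601, 1602 and 1608. Library totals were 59988846 to 85724084 estimated counts in MLKL ASO mice and 67699450 to 87776706 in control ASO mice. Control mouse 1608 stood apart from the other libraries, at 90.8 on the first principal component against 17.1 or less in the others. The 10 endothelial markers were all present in every library, with a summed level of 2741 to 3029 CPM in MLKL ASO mice and 2178 to 4122 CPM in control ASO mice. Markers of blood cells were present too and are given with the results they move with. In every series of 6 values below, the MLKL ASO mice stand in the order 1603, 1604 and 1607 and the control ASO mice in the order 1601, 1602 and 1608.

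Replication genes were higher on average in MLKL ASO mice, but the groups overlapped for most of them. The log2 fold change (MLKL ASO minus control ASO) was above 0 in 34 of the 35 genes, and its median was 0.51, against 48.0% of all 19741 genes and a median of -0.016. After adjustment over all genes, 0 of 35 passed edgeR's quasi-likelihood test at 0.05, where the background was 0.00507% of genes higher. Before adjustment, 11 of 35 were higher with p under 0.05 and 0 were lower, against 4.86% of all genes higher and 7.13% lower. DESeq2 called 1 of 35 higher, which was Ccne2, against 1.14% of all genes, the authors' deposited table called the same single gene, against 0.914%, and limma-voom with sample weights called 0, against 0.0456%. The groups did not overlap in 5 of 35 genes (Orc6, Cdc45, Gins2, Rfc3 and Ccne2, all higher), against 8.73% of all genes that were higher without overlap. With 3 mice a group, such separation fixes the exact two-sided permutation p at 0.1, the lowest value possible. That test therefore adds nothing for these 5. Since these are bulk libraries, more cells of a dividing type and more RNA of these genes per cell cannot be told apart.

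A pair of mice decided how far the groups overlapped. MLKL ASO mouse 1603 held the highest level of the 6 mice in 18 genes and mouse 1604 in 13, whereas mouse 1607 did so in 0. Among control ASO mice, 1608 held the lowest level in 28 genes and 1602 in 6, whereas mouse 1601 was lowest in 0 and highest in 4. Mouse 1607 was above control mouse 1601 in 5 of the 35 genes, although it was above mouse 1602 in 31 and above mouse 1608 in 34. Mouse 1603 was above mouse 1601 in 30 genes and mouse 1604 in 25, against 51.4% and 52.7% of all genes in the same comparisons of mice. Without control mouse 1601 the groups did not overlap in 31 of 35 genes, against 15.4% of all genes, and 30 of 35 reached an unadjusted p under 0.05 in edgeR, against 6.92% of all genes higher. The adjusted test still called 0 of 35 genes without mouse 1601. Without MLKL ASO mouse 1607 the groups did not overlap in 24 of 35 genes, against 13.5% of all genes. Without control mouse 1608 the overlap-free count was 5, against 16.8% of all genes, and 3 genes reached an unadjusted p under 0.05, against 6.56% of all genes higher, so neither count was far from the background. Leaving out 1 mouse moved the log2 fold change by more than 1.5 times, or turned its sign, in 26 of the 35 genes, in 20 of them without control mouse 1601 and in 21 without control mouse 1608.

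**Figure D2:**
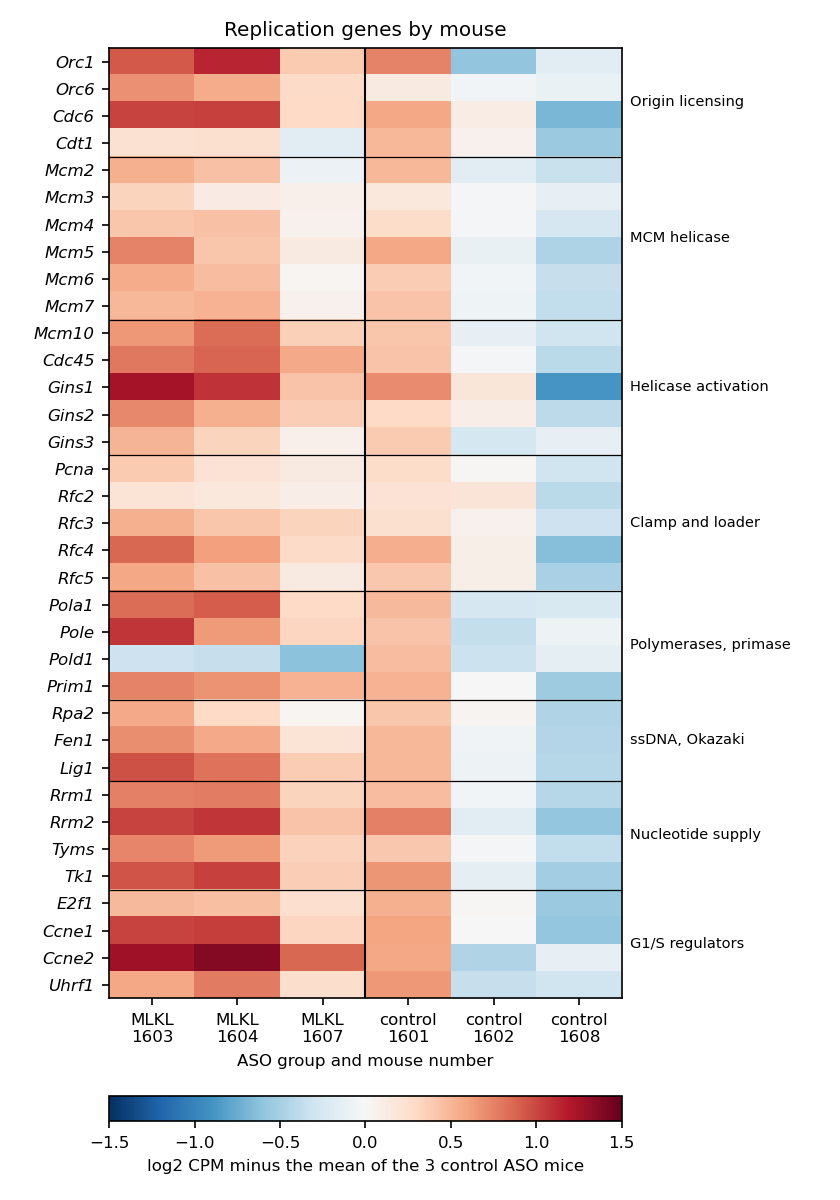
Level of each of the 35 genes (rows, grouped by role) in each mouse (columns, MLKL ASO left of the line and control ASO right), as log2 CPM minus the mean of the 3 control ASO mice. Mice 1603 and 1604 are high for most genes, control mouse 1601 is nearer to them than to controls 1602 and 1608, and Pold1 is the row with the opposite pattern.

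Among the regulators of the G1 to S transition, the E-type cyclins differed most. Ccne2, cyclin E2, which activates Cdk2, measured 48.5, 52.3 and 36.5 CPM in MLKL ASO mice, against 30.0, 14.7 and 18.5 CPM in control ASO mice. Every MLKL ASO mouse was above every control ASO mouse, with means of 45.8 ± 8.27 and 21 ± 7.95 CPM (SD, n = 3 each). The fold change of 2.17 (1.12 on the log2 scale, with a standard error, SE, of 0.28) was the largest of the 35 and had an edgeR adjusted p of 0.300. It passed in DESeq2 (adjusted p = 0.0164) and in the authors' deposited table, where its value was 1.13 and its adjusted p 0.0394, and it stayed between 0.91 and 1.47 on the log2 scale whichever mouse was left out. Its paralogue Ccne1, cyclin E1, measured 42.9, 43.4 and 26.5 CPM in MLKL ASO mice, against 31.8, 21.1 and 14.1 CPM in control ASO mice. Here mouse 1607 fell between the control mice, and the log2 fold change was 0.75 (SE 0.32, edgeR adjusted p = 0.415). Uhrf1, which carries DNA methylation over to new strands, had 40.2, 46.3 and 32.5 CPM in MLKL ASO mice, against 42.2, 21.3 and 21.8 CPM in control ASO mice. E2f1, which encodes an activating E2F factor and not the only one, was low and close between the groups. It measured 5.77, 5.62 and 4.87 CPM in MLKL ASO mice, against 5.96, 4.14 and 2.80 CPM in control ASO mice. The highest E2f1 level of the 6 belonged to control mouse 1601, and the log2 fold change was 0.33 (SE 0.30).

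The origin licensing genes split into 3 that were higher and 1 that was level. Orc6, the smallest subunit of the origin recognition complex, measured 68.0, 61.9 and 51.5 CPM in MLKL ASO mice, against 46.5, 41.1 and 39.4 CPM in control ASO mice. The groups did not overlap, the log2 fold change was 0.51 (SE 0.14), and the unadjusted p was 0.00794 (edgeR adjusted p = 0.325). Orc1, the largest subunit and the one whose level varies over the cell cycle, measured 10.6, 12.3 and 7.36 CPM in MLKL ASO mice, against 9.38, 3.71 and 5.02 CPM in control ASO mice. Cdc6, the ATPase that recruits the helicase with Cdt1, had 69.6, 70.4 and 42.4 CPM in MLKL ASO mice, against 51.7, 37.3 and 21.5 CPM in control ASO mice. In both Orc1 and Cdc6, control mouse 1601 lay above MLKL ASO mouse 1607. Cdt1, the loading factor destroyed once S phase begins, did not follow its partners: it measured 26.3, 26.5 and 19.9 CPM in MLKL ASO mice, against 31.6, 23.4 and 15.2 CPM in control ASO mice. Its log2 fold change of 0.05 (SE 0.27) turned to -0.019, -0.022 and -0.19 without mouse 1603, 1604 or 1608.

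The subunits of the MCM2-7 helicase ring were close to each other and differed little between the groups. Log2 fold changes ran from 0.18 for Mcm3 to 0.39 for Mcm5, the median being 0.32, and 0 of 6 reached an unadjusted p under 0.05. Mcm5 measured 117, 92.6 and 76.2 CPM in MLKL ASO mice, against 104, 64.3 and 50.4 CPM in control ASO mice. Mcm2 measured 121, 114 and 78.8 CPM in MLKL ASO mice, against 118, 74.8 and 66.2 CPM in control ASO mice. In both, control mouse 1601 lay above MLKL ASO mice 1604 and 1607. Mcm3 was the steadiest subunit, at 137, 119 and 115 CPM in MLKL ASO mice, against 122, 107 and 100 CPM in control ASO mice. Mcm4, Mcm6 and Mcm7 had log2 fold changes of 0.30, 0.33 and 0.34, with edgeR adjusted p-values of 0.535, 0.586 and 0.595.

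The factors that turn the loaded ring into a working helicase were further apart between the groups, with a median log2 fold change of 0.59 over 5 genes. Cdc45, which locks onto MCM2-7 as the origin fires, measured 21.6, 23.0 and 18.5 CPM in MLKL ASO mice, against 16.8, 12.3 and 9.48 CPM in control ASO mice. Its groups did not overlap, and its log2 fold change was 0.71 (SE 0.23, edgeR adjusted p = 0.347). Gins2, a subunit of the 4-part GINS complex, measured 35, 30.7 and 27.4 CPM in MLKL ASO mice, against 26, 22.7 and 16.1 CPM in control ASO mice, also without overlap. Gins1 had the second largest log2 fold change of the 35, 0.82 (SE 0.41). It measured 16.0, 14.2 and 9.04 CPM in MLKL ASO mice, against 11, 7.61 and 3.64 CPM in control ASO mice, and much of the difference came from the low value of mouse 1608. Without mouse 1608 its log2 fold change was 0.49. Mcm10, needed for the helicase to start unwinding, measured 20.1, 22.8 and 16.5 CPM in MLKL ASO mice, against 17.1, 11.8 and 10.4 CPM in control ASO mice. Gins3 differed least of these 5, with a log2 fold change of 0.29.

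Among the sliding clamp and its loader, 1 subunit separated the groups. Rfc3, a subunit of the replication factor C complex that opens PCNA and sets it on DNA, measured 37.8, 34.7 and 33.0 CPM in MLKL ASO mice, against 30.8, 27.4 and 21.1 CPM in control ASO mice. The groups did not overlap, and the log2 fold change was 0.41 (SE 0.17, edgeR adjusted p = 0.400). Pcna, which encodes the clamp, measured 201, 178 and 168 CPM in MLKL ASO mice, against 185, 156 and 125 CPM in control ASO mice, a log2 fold change of 0.23. Rfc4, another loader subunit, measured 68.0, 57.3 and 45.6 CPM in MLKL ASO mice, against 54.6, 39.7 and 24 CPM in control ASO mice. Its log2 fold change of 0.53 was 0.85 without mouse 1601 and 0.27 without mouse 1608. Rfc5 measured 70.4, 63.9 and 51.6 CPM in MLKL ASO mice, against 62.0, 49.9 and 33.5 CPM in control ASO mice. In both genes control mouse 1601 lay above mouse 1607, and the log2 fold change of Rfc5, 0.35, was 0.58 without mouse 1601 and 0.14 without mouse 1608. Rfc2 was level in 5 of the 6 mice, at 140, 135 and 130 CPM in MLKL ASO mice, against 141, 139 and 92.1 CPM in control ASO mice. Its log2 fold change of 0.13 turned to -0.051 without mouse 1608.

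The polymerases did not move as 1 unit. Pola1, the catalytic subunit of polymerase alpha, measured 43.7, 45.7 and 30.0 CPM in MLKL ASO mice, against 34.2, 20.4 and 20.9 CPM in control ASO mice, a log2 fold change of 0.66 (SE 0.25). Prim1, the primase subunit that makes the RNA primer for it, measured 40.6, 38.7 and 34.9 CPM in MLKL ASO mice, against 35, 24.4 and 16.8 CPM in control ASO mice. Pole, the catalytic subunit of the leading strand polymerase epsilon, had a log2 fold change of 0.67 at 6.90 to 11.5 CPM in MLKL ASO mice and 4.29 to 7.43 CPM in control ASO mice. Pold1, the catalytic subunit of polymerase delta, which copies the lagging strand, was the 1 gene of the 35 with a log2 fold change below 0. It measured 26.7, 26 and 21.6 CPM in MLKL ASO mice, against 45.3, 26.3 and 30.1 CPM in control ASO mice. Control mouse 1601 was far above the rest, and the log2 fold change was -0.45 (SE 0.22, edgeR adjusted p = 0.463). Without mouse 1601 it was -0.18, so the size of the difference rested on that mouse. In the other mice of both groups Pold1 stayed between 21.6 and 30.1 CPM.

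Genes for single-stranded DNA handling and the joining of Okazaki fragments were higher in 3 of 3 cases by their means. Lig1, the ligase that seals the fragments, measured 86.6, 78.0 and 57.8 CPM in MLKL ASO mice, against 62.9, 42.2 and 33.2 CPM in control ASO mice, with a log2 fold change of 0.68 and a standard error of 0.26. Fen1, the nuclease that trims the flaps before ligation, measured 186, 170 and 132 CPM in MLKL ASO mice, against 161, 110 and 84.5 CPM in control ASO mice. Rpa2, a subunit of the protein that coats single-stranded DNA, measured 81.5, 67.6 and 56.2 CPM in MLKL ASO mice, against 73.2, 56.5 and 40.1 CPM in control ASO mice. Its log2 fold change of 0.27 (SE 0.24) became 0.51 when control mouse 1601 was left out, 0.12 when MLKL ASO mouse 1603 was, and 0.074 when control mouse 1608 was. None of these 3 separated the groups, and in each control mouse 1601 lay above MLKL ASO mouse 1607.

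Enzymes that supply deoxynucleotides had the highest median of the 8 role groups, 0.65 on the log2 scale over 4 genes. Rrm2, the cell cycle regulated subunit of ribonucleotide reductase, measured 305, 317 and 202 CPM in MLKL ASO mice, against 254, 134 and 101 CPM in control ASO mice. The means were 275 ± 62.7 CPM and 163 ± 80.5 CPM (SD, n = 3 each), and the log2 fold change of 0.75 had a standard error of 0.34. Rrm1, the large subunit that is present for longer in the cycle, measured 209, 210 and 156 CPM in MLKL ASO mice, against 171, 120 and 91.5 CPM in control ASO mice. Tk1, thymidine kinase, measured 82.6, 87.4 and 55.8 CPM in MLKL ASO mice, against 67.9, 39.0 and 30.1 CPM in control ASO mice. Tyms, thymidylate synthase, had 82.4, 77.6 and 63.1 CPM in MLKL ASO mice, against 66.0, 48.6 and 38.5 CPM in control ASO mice. The order of the mice was alike in all 4: mice 1603 and 1604 at the top, then control mouse 1601, then mouse 1607, with controls 1602 and 1608 below.

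**Figure D3:**
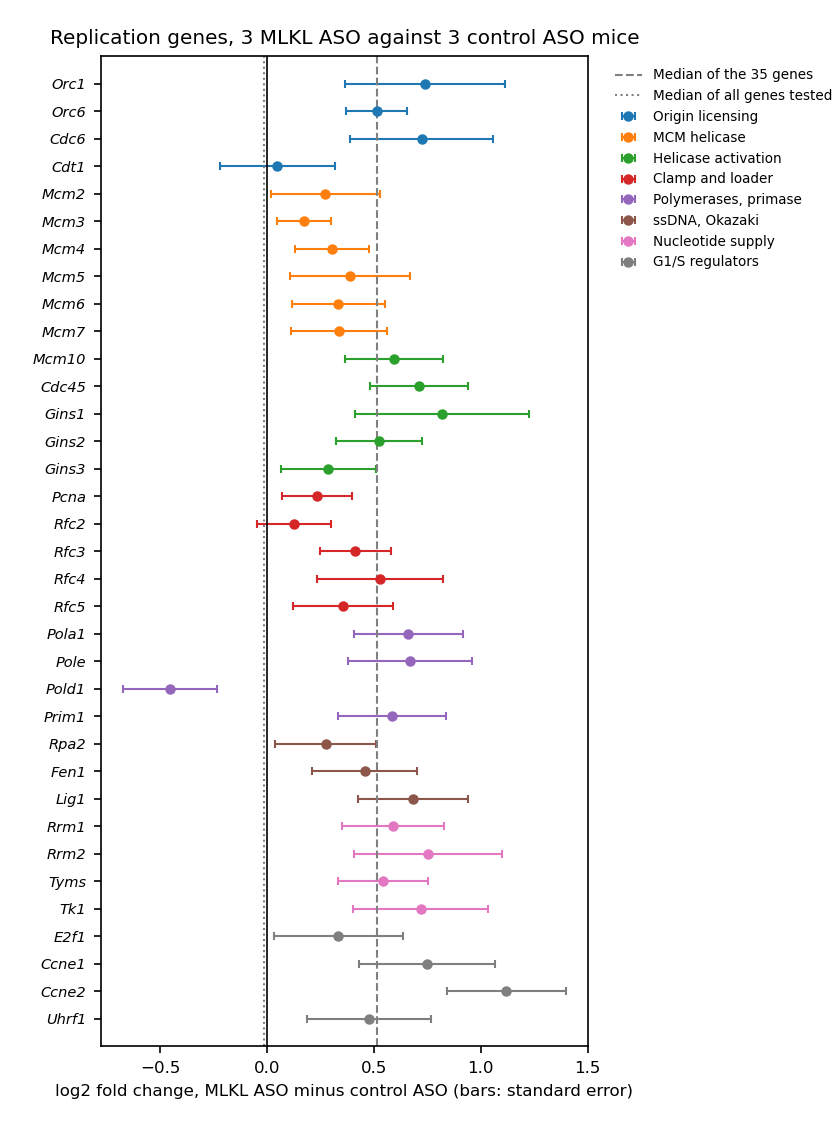
Log2 fold change of each of the 35 genes (MLKL ASO minus control ASO, 3 mice each; points, with the standard error as bars), coloured by role. The dashed line is the median of the 35 genes (0.51) and the dotted line that of all genes tested (-0.016): Ccne2 is highest at 1.12, the MCM2-7 subunits lie between 0.18 and 0.39, and Pold1 is at -0.45.

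The lowest role groups stayed the same whichever mouse was left out, while the order of the others changed. With all 6 mice the medians ran from 0.32 for MCM2-7 and 0.35 for the clamp and its loader to 0.62 for the polymerases and primase and 0.65 for nucleotide supply. Without control mouse 1601 the same 4 medians were 0.56, 0.54, 0.91 and 0.99, and without control mouse 1608 they were 0.17, 0.14, 0.45 and 0.44. MCM2-7 and the clamp group were the lowest 2 of the 8 with all 6 mice and in each fit that left out 1 mouse. The highest group was not fixed. It was the polymerases and primase without mouse 1604 (0.558, against 0.553 for nucleotide supply). Without mouse 1608 it was origin licensing (0.455, against 0.441 for nucleotide supply). The median over all 35 genes was 0.75 without mouse 1601 and 0.31 without mouse 1608.

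**Figure D4:**
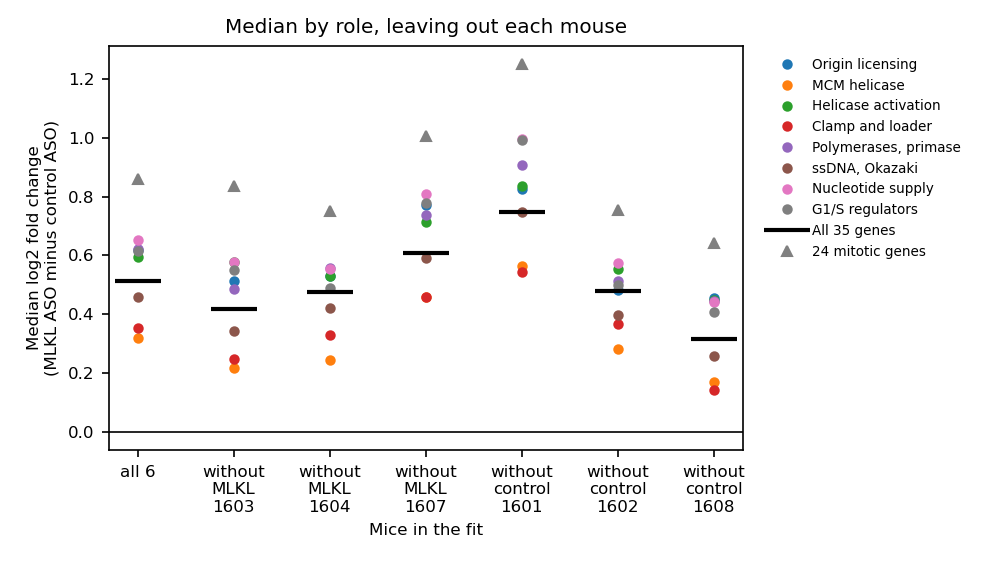
Median log2 fold change (MLKL ASO minus control ASO) of each role group, of all 35 replication genes and of 24 mitotic genes, with all 6 mice and with each mouse left out. The median of the 35 genes ranges from 0.31 without control mouse 1608 to 0.75 without control mouse 1601, and mitotic genes lie above every role group in all 7 fits.

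Other genes of the replication machinery had a lower median. Of 32 further genes on a list of replisome and origin factors, 26 were above 0, and the median log2 fold change was 0.23. Before adjustment, 5 were higher and 0 lower with p under 0.05, against 4.86% and 7.13% of all genes. In edgeR's adjusted test 0 passed, and DESeq2 called 2 higher, against 1.14% of all genes. Groups did not overlap in 8 of the 32, all higher, against 8.73% of all genes. That is a larger share than the 5 of 35 above. The difference between the lists was not tested. Pola2, the second subunit of polymerase alpha, measured 65.2, 59.2 and 74.9 CPM in MLKL ASO mice, against 47.6, 38.3 and 38.6 CPM in control ASO mice. It had a log2 fold change of 0.68 (SE 0.15, edgeR adjusted p = 0.266, DESeq2 adjusted p = 0.00911), and unlike Pola1 it was highest in mouse 1607. Topbp1, which helps Cdc45 onto origins and also activates the ATR checkpoint, measured 27.7, 27.5 and 29.3 CPM in MLKL ASO mice, against 21.3, 19.7 and 17.5 CPM in control ASO mice. Its adjusted p was 0.0167 in DESeq2, but 0.300 in edgeR and 0.231 in the authors' deposited table. Clspn, the fork protein claspin, had a log2 fold change of 0.88 and did not overlap between the groups.

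Genes of the G1 machinery were mostly above 0 as well. Of 22 genes of the E2F, RB and G1 machinery 20 were above 0, with a median log2 fold change of 0.39. Before adjustment, 7 were higher with p under 0.05, against 4.86% of all genes. After adjustment 0 passed in edgeR or DESeq2. Ccnd1, cyclin D1, which couples growth signals to RB, measured 250, 162 and 183 CPM in MLKL ASO mice, against 130, 132 and 119 CPM in control ASO mice. Cdk2, the kinase partner of the E cyclins, measured 88.9, 96.3 and 78.9 CPM in MLKL ASO mice, against 70.6, 69.2 and 68.4 CPM in control ASO mice. E2f8, a repressive E2F factor that is itself an E2F target, had a log2 fold change of 0.94 (SE 0.32). Groups did not overlap in these 3 genes, but in E2f8 only narrowly. There MLKL ASO mouse 1607 had 8.92 CPM, against 8.88 CPM in control mouse 1601. Control mouse 1601 did not stand above the other controls in Ccnd1.

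Inhibitors of cyclin-dependent kinases differed in direction among themselves, with 4 of 7 above 0. Cdkn1a, which encodes p21, a p53 target that binds both cyclin E-Cdk2 and PCNA, measured 292, 302 and 498 CPM in MLKL ASO mice, against 113, 177 and 250 CPM in control ASO mice. The groups did not overlap and the log2 fold change was 1.01 (SE 0.32, edgeR adjusted p = 0.346). Within each group p21 ran against the replication genes: it was highest in mouse 1607 among the MLKL ASO mice, and in mouse 1608 among the controls. Cdkn1c, p57, measured 2.45, 1.93 and 1.44 CPM in MLKL ASO mice, against 3.19, 8.32 and 3.16 CPM in control ASO mice. Its adjusted p was 0.0465 in the authors' deposited table, but 0.359 in edgeR, 0.0956 in DESeq2 and 0.149 in limma-voom. Cdkn1b, p27, had a log2 fold change of 0.29.

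Of 16 genes for nucleotide and chromatin supply, 13 were above 0. Before adjustment, 3 were higher and 1 was lower with p under 0.05, against 4.86% and 7.13% of all genes. After adjustment 0 passed in edgeR or DESeq2. Atad2, a chromatin ATPase, and Asf1b, a histone chaperone, had log2 fold changes of 0.63 each. Cad, the enzyme that begins pyrimidine synthesis, went the other way, at 40.4, 42.2 and 41.0 CPM in MLKL ASO mice, against 59.9, 52.1 and 122 CPM in control ASO mice. Of 13 checkpoint and repair genes 11 were above 0. Before adjustment, 3 were higher with p under 0.05, against 4.86% of all genes, and 0 passed in edgeR or DESeq2 after it. Their median log2 fold change of 0.47 was 0.80 without control mouse 1601 and 0.30 without MLKL ASO mouse 1604. The 3 genes were Exo1, Brca1 and Brca2, with log2 fold changes of 0.93, 0.80 and 0.64. Exo1, a repair exonuclease, measured 12.3, 12.7 and 10.5 CPM in MLKL ASO mice, against 8.85, 4.44 and 5.28 CPM in control ASO mice (edgeR adjusted p = 0.341, adjusted p = 0.012 in the authors' deposited table).

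Mitotic genes lay further from 0 than replication genes. All 24 genes of the mitotic list were above 0, with a median log2 fold change of 0.86. Before adjustment, 21 were higher with p under 0.05, against 4.86% of all genes. In edgeR 0 of the 24 passed after adjustment, and DESeq2 called 4 higher, against 1.14% of all genes. Groups did not overlap in 13 of the 24, all higher, against 8.73% of all genes. Prc1, which bundles the spindle midzone, measured 78.4, 91.4 and 68.0 CPM in MLKL ASO mice, against 50.7, 31.9 and 24.3 CPM in control ASO mice (log2 fold change 1.15, SE 0.27). Tpx2, a spindle assembly factor, and Cenpf, a kinetochore protein, had log2 fold changes of 0.96 and 1.02, also without overlap. Summed over the lists, replication genes came to 2915, 2781 and 2144 CPM in MLKL ASO mice, against 2535, 1820 and 1442 CPM in control ASO mice, which overlap. Mitotic genes came to 1698, 1955 and 1317 CPM in MLKL ASO mice, against 1287, 785 and 597 CPM in control ASO mice, which do not. The summed level of replication genes divided by that of mitotic genes was 1.72, 1.42 and 1.63 in MLKL ASO mice, against 1.97, 2.32 and 2.42 in control ASO mice, so each MLKL ASO mouse had the lower ratio. The difference between the lists was not tested.

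Erythroid markers moved broadly with the replication genes. The 12 erythroid markers, all detected in every library, summed to 1546, 2605 and 1135 CPM in MLKL ASO mice, against 1752, 747 and 733 CPM in control ASO mice. Control mouse 1601 was thus high in both lists among the controls, and mouse 1607 low in both among the MLKL ASO mice. The orders were not identical, since mouse 1604 had the highest erythroid sum and mouse 1603 the highest replication sum. All 12 erythroid markers were above 0, with a median log2 fold change of 0.78, or 1.33 without mouse 1601 and 0.51 without mouse 1608. Replication genes divided by erythroid markers gave 1.89, 1.07 and 1.89 in MLKL ASO mice, against 1.45, 2.44 and 1.97 in control ASO mice, with overlap. The part of erythroid cells in the result was not tested.

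Markers of other cell types were present as well. The 5 neutrophil progenitor markers, all detected, summed to 115, 527 and 207 CPM in MLKL ASO mice, against 271, 91.8 and 30.8 CPM in control ASO mice. The control mice stood in the same order as for the replication genes, the MLKL ASO mice did not. All 5 were above 0, with a median log2 fold change of 0.97, or 2.19 without control mouse 1601, 0.51 without control mouse 1608 and 0.20 without MLKL ASO mouse 1604. The 6 megakaryocyte markers, all detected, summed to 683, 1586 and 1032 CPM in MLKL ASO mice, against 665, 943 and 60.0 CPM in control ASO mice. All 6 were above 0, with a median of 0.96, or 0.61 without mouse 1604 and 0.52 without mouse 1608. The 6 stem and progenitor markers came to 587 to 780 CPM in MLKL ASO mice and 373 to 697 CPM in control ASO mice, with the lowest sum in control mouse 1601. Most of each sum was Cd34, at 578, 448 and 656 CPM in MLKL ASO mice, against 256, 407 and 540 CPM in control ASO mice. Of these 6 markers, 3 were above 0 and 3 below, so the sum does not stand for the whole list. T cell markers were lower in MLKL ASO mice, at 114 to 137 CPM against 171 to 416 CPM in control ASO mice, and were highest in mouse 1601. B cell markers came to 608 to 995 CPM in MLKL ASO mice and 848 to 1830 CPM in control ASO mice. Their highest sum was in control mouse 1601 too. Germinal centre markers, which mark the dividing B cells of the spleen, were low in both groups, at 39.0 to 51.2 CPM in MLKL ASO mice and 50.5 to 57.3 CPM in control ASO mice. All 5 were below 0, and their highest sum was in control mouse 1608, so they did not follow the replication genes. Plasma cell markers came to 876 to 1149 CPM in MLKL ASO mice and 1042 to 2494 CPM in control ASO mice. Jchain made up most of each sum. It measured 1092, 842 and 830 CPM in MLKL ASO mice, against 2437, 1760 and 981 CPM in control ASO mice. The 4 log2 fold changes of the list ran from -0.018 to -0.91, the latter for Jchain. Macrophage markers came to 259 to 462 CPM in MLKL ASO mice and 202 to 563 CPM in control ASO mice. Control mouse 1601 held the highest plasma cell and macrophage sums of the 6 mice. None of these lists had a marker at 0 in any library. Endothelial markers ran against the replication genes within the control group, with 2178 CPM in mouse 1601, 3141 CPM in mouse 1602 and 4122 CPM in mouse 1608. The part of each cell type in the result was not tested.

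**Figure D5:**
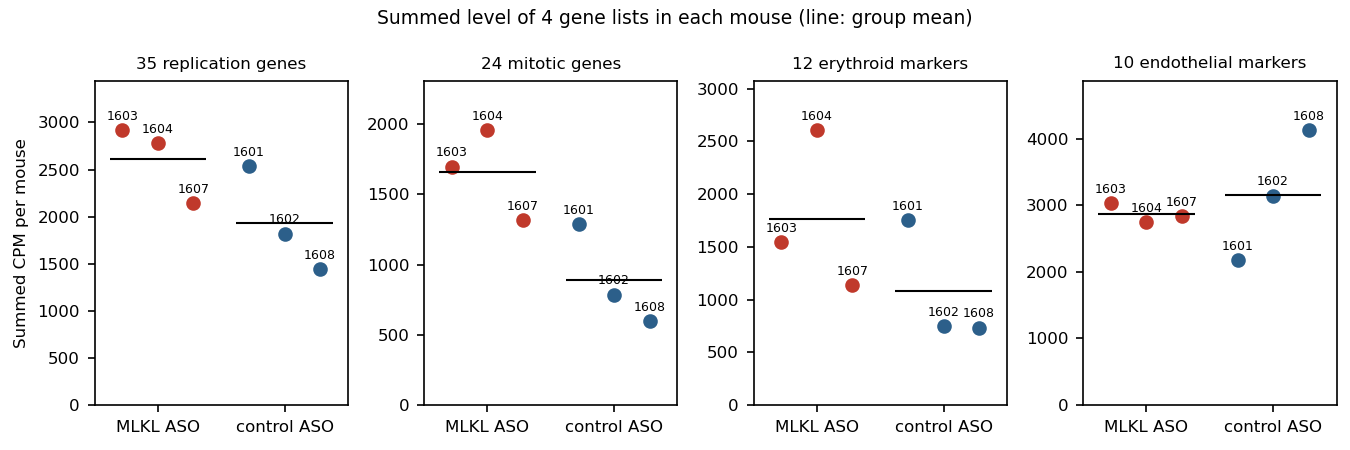
Summed CPM per mouse (points, with mouse numbers; line: group mean) of the 35 replication genes, 24 mitotic genes, 12 erythroid markers and 10 endothelial markers, MLKL ASO left and control ASO right in each panel. Control mouse 1601 lies at 2535 CPM for replication genes and 1752 CPM for erythroid markers, above MLKL ASO mouse 1607 in both, while the mitotic sums of the groups do not overlap.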

How the data were processed

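The authors deposited estimated counts per gene symbol for 6 libraries. Per the submitters' processing notes, the tools named are fastp 0.20.1 (a read trimmer), Salmon 1.3.0 (a transcript quantifier) and DESeq2. The sources used here name no genome build or gene models. Per the labels' protocols, the library kit was directional. Of the values 69.3% have decimals; Salmon shares reads between similar transcripts, so genes with near-identical copies are uncertain. A DESeq2 table of the authors' own comparison was also deposited, with, per the file headers, a normalised signal averaged over libraries, log2 fold changes and their errors, a test score, and p-values before and after adjustment. Its sign was settled from the data: across 19724 genes it correlated with the fold changes computed here at a Pearson r of 0.978.

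Counts were rounded, 4 symbols that are numbers (0.0013% to 0.0017% of counts) were left out, and genes were filtered (filterByExpr), scaled by TMM and tested with edgeR 4.0.16 (glmQLFit and glmQLFTest, two-sided, R 4.3.3), with Benjamini-Hochberg adjustment over all 19741 genes and a threshold of 0.05. CPM use the TMM-scaled totals. On simulated data with 200 changed genes among 19741, this test found 21 of the 100 altered 2-fold and 85 of the 100 altered 4-fold, and called 6 that were not altered. Alternatives were other scalings, count filters (none, or 1 CPM or more in 3 libraries), a robust fit, DESeq2 1.42.0, limma-voom (limma 3.58.1) with sample weights, and leaving out each mouse. Mouse numbers do not recur between the groups and the labels name no batch. The genes, role groups and lists were chosen with earlier results of these data known. Named beside the 35 genes are Mlkl, Cd34, Jchain and the genes with the smallest p in each further list. Promoters come from RefSeq (GRCm38.p6) and were matched by symbol; protein sequences were not used here.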

Additional observations from a re-analysis of the deposited data

How the results depend on the processing

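Over all genes, edgeR called 1 higher and 1 lower, and Mlkl was not among them (edgeR adjusted p = 0.0666). The counts were 2 and 2 with upper quartile scaling, 5 and 4 with library totals only, 224 and 291 in DESeq2, and 9 and 15 in limma-voom. Leaving out 1 mouse gave 0 to 10 higher and 0 to 9 lower. For the 35 replication genes the count of calls was 0 in every edgeR and limma-voom fit and 1 in DESeq2. Their median log2 fold change kept its sign in all 14 alternatives, from 0.31 to 0.75. In alternatives added after seeing the data, 17 of the 35 were higher at an unadjusted p under 0.05 in DESeq2, against 6.45% of all genes, and 23 in limma-voom, against 8.28%. Leaving out 1 mouse gave 2 to 30 at that level, against 2.56% to 6.92% of all genes, and 5 to 31 genes without overlap, against 12.7% to 16.8% (24 without MLKL ASO mouse 1607, 31 without control mouse 1601, 5 in each of the others). Among single genes the sign turned in 4 leave-one-out values, all of Cdt1 (-0.019, -0.022 and -0.19, range -0.19 to 0.33) and Rfc2 (-0.051, range -0.051 to 0.23), and in 0 other alternatives. The cause of these shifts was not tested. No paired analysis was possible because the groups share no mouse numbers. The lowest estimated count of any of the 35 genes in a library was 194, for E2f1 in control mouse 1608.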
